A study of Mus musculus with 4 samples.

Results

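A set of 10 genes of steroid synthesis and inactivation was read by symbol from expression tables of mouse uterus at gd11.5 of pregnancy. The labels name sorted NK cells, but genes of the sort markers were low, as given below. Rows were found for 9 of the 10 genes named, out of 21993 genes in each table, namely Star, Cyp11a1, Cyp17a1, Hsd11b1, Hsd11b2, Hsd17b2, Hsd17b11, Akr1c18 and Srd5a1. The sulfatase gene Sts was not analysed here. RNA sequencing covered 2 libraries of mice that carry Cre recombinase driven from Ncr1, a gene of NK cells and related innate lymphocytes (Ncr1Cre, n = 2), and 2 libraries of control mice without Cre (n = 2). By their labels all 4 hold cells of uterus sorted as CD3-, CD45+ and NK1.1+, from females whose mates were B6 males. Whether each library stands for its own mouse is not stated, so p-values here cover the spread from library to library, which may be technical.

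Steroid hormones are made from cholesterol. Star carries cholesterol to the inner mitochondrial membrane, Cyp11a1 cleaves its side chain to give pregnenolone, and Cyp17a1 turns progestogens into androgen precursors. Other enzymes set how much active hormone a tissue sees: Hsd11b1 regenerates active glucocorticoid and Hsd11b2 inactivates it, Hsd17b2 oxidises estradiol and testosterone, Akr1c18 and Srd5a1 reduce progesterone, and Hsd17b11 oxidises an androgen metabolite. In rodent pregnancy progesterone comes mainly from the corpus luteum of the ovary, while decidua, uterine epithelium and placenta carry enzymes that make or remove steroids locally.

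Levels are in FPKM, the fragments on each kilobase of transcript scaled to the library's total, a level per length that can be compared between genes. Means are given ± SD over 2 libraries. The summed FPKM of a library was 384852 to 468192, and the depth implied by the steps of low values was about 20900000 to 38540000 fragments. Of the NK-cell genes, Ncr1, Klrb1c and Eomes were below 1 FPKM in all 4 libraries, while Gzmb, Prf1, Gzma and Nkg7 were low but present. Eomes lay between 0.41 and 0.88 FPKM and Klrd1 between 0.53 and 1.04. Ncr1 lay between 0 and 0.36 FPKM, Klrb1c, the gene of NK1.1, between 0.45 and 0.97, and Cd3e, a T-cell gene, between 0 and 0.13. The cytotoxic granule genes Gzmb, Prf1 and Gzma lay between 5.03 and 9.39, 2.74 and 7.07, and 2.53 and 3.69 FPKM, and Nkg7 between 4.03 and 5.05. Ptprc, the gene of CD45, stood at 4.77 ± 0.54 in Ncr1Cre and 2.73 ± 0.23 in control. Genes of stroma and epithelium were far higher in the same libraries, as given at the end. These values go against the sort label, so the enzyme levels below cannot be assigned to NK cells. In such bulk libraries fewer cells of a type and less RNA per cell cannot be told apart.

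The 5 abundant enzymes were Hsd11b2, Akr1c18, Hsd11b1, Hsd17b11 and Srd5a1, and the steroid-making genes were far lower. In control the order of the mean levels was Hsd11b2 (1183 FPKM), Akr1c18 (199.5), Hsd11b1 (121), Hsd17b11 (45.5), Srd5a1 (32.7), Star (2.02), Cyp11a1 (1.35), Cyp17a1 (0.68) and Hsd17b2 (0.32). In Ncr1Cre it was Akr1c18 (805), Hsd11b2 (483), Hsd11b1 (464), Hsd17b11 (107), Srd5a1 (83.3), Cyp11a1 (13.3), Hsd17b2 (3.20), Cyp17a1 (1.23) and Star (0.99). No neighbours in either order overlapped over the 2 libraries, but Hsd11b2 and Hsd11b1 were only 1.04-fold apart in Ncr1Cre. Hsd11b2 stood at the 99.9th percentile of all genes in both control libraries. The 9 genes together took 0.42% of summed FPKM in both Ncr1Cre libraries and 0.41% and 0.40% in control, so their total share was nearly level while its make-up differed.

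**Figure D1:**
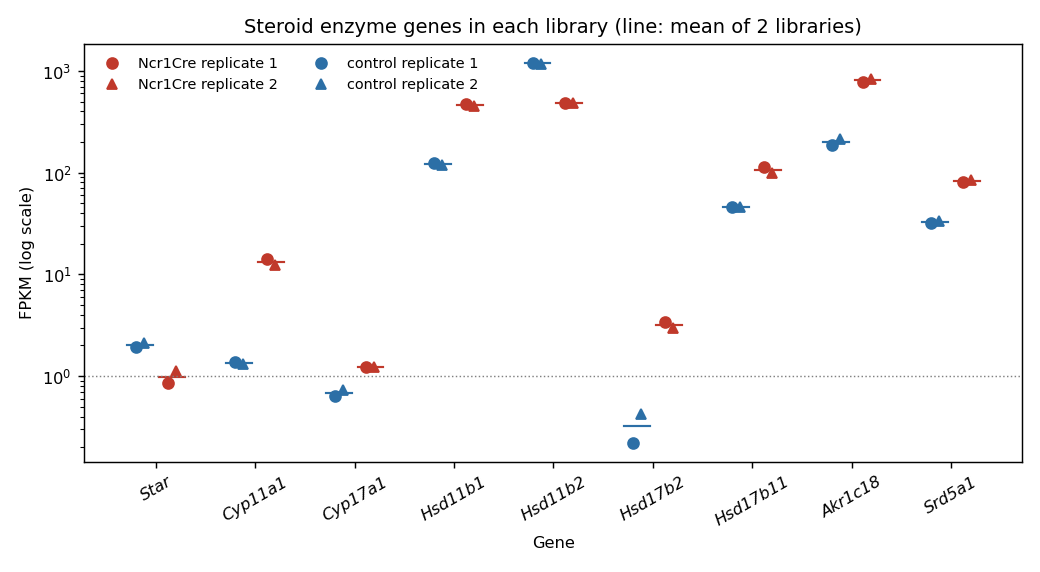
FPKM (log scale) of the 9 enzyme genes in each library, with red for Ncr1Cre, blue for control, circles for replicate 1, triangles for replicate 2 and a line at the mean of 2 libraries. Star and Hsd11b2 are lower in both Ncr1Cre libraries, and the other 7 genes are higher in both.

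The comparison asks which of these enzymes differ between the libraries of the 2 genotypes. Of the 9 genes, 8 reached a mean of 1 FPKM over the 4 libraries and were tested with limma on log2(FPKM + 1), adjusted over all 11762 genes tested. All 8 passed at an adjusted p under 0.05, with 6 higher and 2 lower in Ncr1Cre. Of all tested genes 48.5% passed as well, 30.9% as higher and 17.6% as lower, so a call by itself sets no gene apart here. Hsd17b2 and Star reached the filter only through the genotype in which they are high, so their calls add nothing to that count. The other 6 tested genes were at least 1.32 FPKM in every library. A difference of at least 2-fold on the log2(FPKM + 1) scale without overlap of the genotypes was seen for each of these 6 genes and for 12.5% of all tested genes (9.81% higher and 2.7% lower). The groups did not overlap for 76.2% of tested genes. The median log2 fold change over all tested genes was 0.11, and each of the 8 genes kept its direction and its call when that shift was removed.

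**Figure D2:**
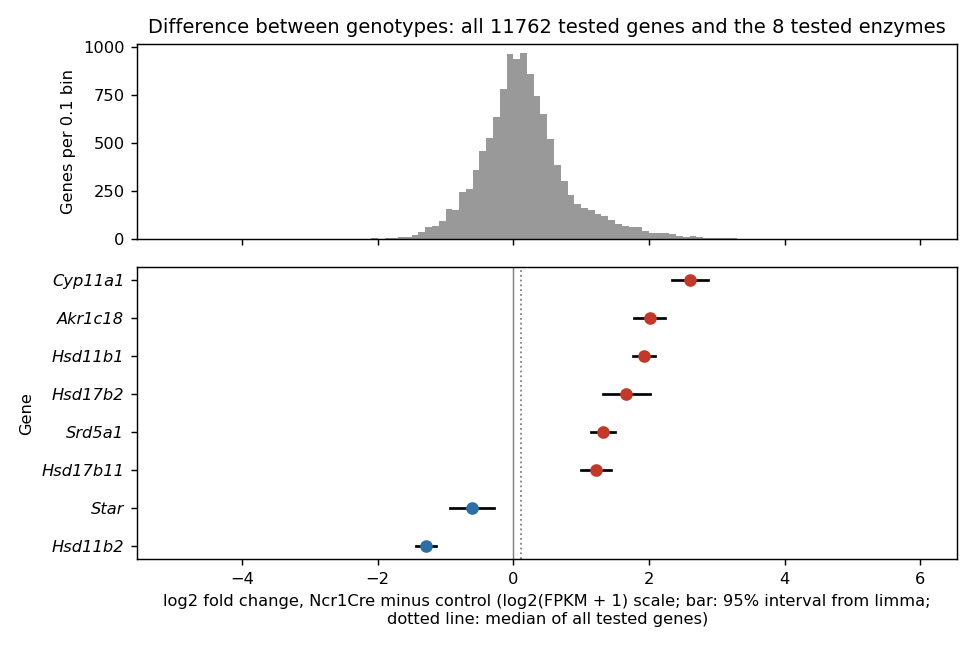
Upper panel, histogram of log2 fold changes (Ncr1Cre minus control, log2(FPKM + 1) scale) over 11762 tested genes; lower panel, the 8 tested enzyme genes with 95% intervals from limma. Cyp11a1 (2.60) lies farthest to the right and Hsd11b2 (-1.29) farthest to the left.

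Among Star, Cyp11a1 and Cyp17a1, the steroid-making genes of the 9, Cyp11a1 rose and Star fell. Cyp11a1 stood at 14.1 and 12.5 FPKM in Ncr1Cre and at 1.37 and 1.32 in control. Both Ncr1Cre libraries were thus well above both control libraries, a 9.84-fold difference of means (log2 fold change 2.60, SE 0.10, 95% interval 2.34 to 2.87, adjusted p = 0.00019). Only 52 of the 11762 tested genes had a larger rise. An annotated gene, Gm17322, overlaps exons of Cyp11a1 on the same strand, so the assignment of its reads is uncertain.

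Star, the cholesterol carrier, stood at 0.85 and 1.13 FPKM in Ncr1Cre and at 1.94 and 2.11 in control, so it moved against Cyp11a1. Its mean was 2.05-fold lower in Ncr1Cre (log2 fold change -0.61, SE 0.12, adjusted p = 0.0135). The call was lost without replicate 2 of the control (adjusted p = 0.0644) and without the filter on low values (0.0666). Over its alternatives the adjusted p of Star ranged from 0.00681 to 0.0666. With 0.1 FPKM added in place of 1 the log2 fold change was -0.98. These values rest on about 89 to 303 fragments a library.

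Cyp17a1, which directs steroids towards androgens, was low in every library, at 1.22 and 1.23 FPKM in Ncr1Cre and at 0.63 and 0.72 in control. The 2 genotypes did not overlap, at a 1.81-fold difference of means, but the gene stayed under the filter and was not tested in the main comparison. With no filter its log2 fold change was 0.41 (SE 0.046, adjusted p = 0.0335). Within a library Cyp11a1 was 11.48 and 10.1 times the level of Cyp17a1 in Ncr1Cre, and 2.18 and 1.83 times in control.

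Hsd11b1 and Hsd11b2 act in opposite directions on glucocorticoids, and their levels changed in opposite directions. Hsd11b1, the activating enzyme, stood at 474 and 454 FPKM in Ncr1Cre and at 123 and 119 in control. The 2 libraries of each genotype lay close together and the genotypes were 3.83-fold apart (log2 fold change 1.93, SE 0.062, adjusted p = 0.000142). Hsd11b2, the inactivating enzyme, stood at 480 and 485 FPKM in Ncr1Cre and at 1196 and 1169 in control. It was the most abundant of the 9 genes in control and fell 2.45-fold (log2 fold change -1.29, SE 0.057, adjusted p = 0.00022). Only 108 tested genes had a larger fall.

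The ratio of Hsd11b1 to Hsd11b2 within a library does not depend on how libraries are scaled. It was 0.988 and 0.936 in Ncr1Cre and 0.103 and 0.102 in control. The RNA of both enzymes was thus nearly equal in Ncr1Cre, while Hsd11b2 prevailed in control. The log2 ratio was 3.23 higher in Ncr1Cre, a 9.39-fold difference, with SDs of 0.055 and 0.012. An exact two-sided permutation test of 2 against 2 libraries gave p = 0.3333, the smallest value that this design allows, for each of the 4 ratios computed here. These are RNA levels, and enzyme activity was not measured.

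**Figure D3:**
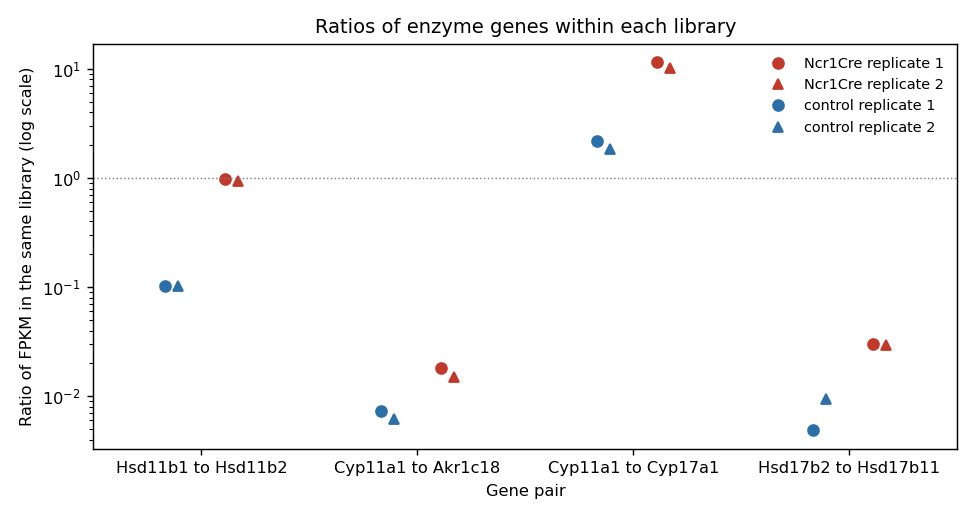
Ratios of FPKM between 2 enzyme genes in the same library (log scale), with red for Ncr1Cre, blue for control, circles for replicate 1 and triangles for replicate 2. Hsd11b1 to Hsd11b2 moves from about 0.10 in control to near 1 in Ncr1Cre, and the other 3 ratios are higher in Ncr1Cre too.

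The progesterone-reducing enzymes both rose. Akr1c18 turns progesterone into a weakly active product and stood at 775 and 835 FPKM in Ncr1Cre and at 186 and 213 in control. It was the most abundant of the 9 genes in Ncr1Cre and 4.04-fold higher there (log2 fold change 2.01, SE 0.090, adjusted p = 0.00022). Akr1c genes are close copies, so reads could be shared between them. Akr1c14, a neighbouring family member, moved the other way, from 23.4 ± 1.88 in control to 10.4 ± 0.27 (log2 fold change -1.10, adjusted p = 0.000799).

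Srd5a1, a steroid reductase that acts on progesterone and testosterone, stood at 81.5 and 85.1 FPKM in Ncr1Cre and at 31.9 and 33.4 in control. The genotypes did not overlap, at 2.55-fold (log2 fold change 1.32, SE 0.069, adjusted p = 0.000279). Gm17108 overlaps its exons on the same strand in the annotation. The related gene Srd5a2 was listed at 0 in all 4 libraries.

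The ratio of Cyp11a1, at the start of the route, to Akr1c18, at the end of progesterone's life, was 0.0182 and 0.0150 in Ncr1Cre and 0.00739 and 0.00622 in control. Akr1c18 RNA was thus in large excess in all 4 libraries, though the excess was 2.43-fold smaller in Ncr1Cre.

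Both oxidising dehydrogenases of the Hsd17b family among the 9 genes were higher in Ncr1Cre. Hsd17b2, which inactivates estradiol, stood at 3.43 and 2.97 FPKM in Ncr1Cre and at 0.22 and 0.43 in control. Its 9.89-fold difference rests on about 11 and 12 fragments in the control libraries, so its size is uncertain (log2 fold change 1.67, SE 0.14, adjusted p = 0.000792). Hsd17b2 reached the filter only through Ncr1Cre, so its call adds nothing to that of Hsd17b11. With 0.1 FPKM added in place of 1 the log2 fold change was 3.002. Hsd17b11, a lipid-droplet enzyme, stood at 114 and 99.9 FPKM in Ncr1Cre and at 45.5 in each control library. It was 2.35-fold higher (log2 fold change 1.21, SE 0.087, adjusted p = 0.000565). The ratio of Hsd17b2 to Hsd17b11 was 0.02997 and 0.0297 in Ncr1Cre and 0.00486 and 0.00934 in control.

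Of the listed relatives, Hsd17b4, Hsd17b7, Hsd17b10 and Hsd17b12 were tested and did not pass. Hsd17b4, a peroxisomal enzyme of fatty acid breakdown, stood at 16.1 ± 0.034 in Ncr1Cre and 17.3 ± 1.42 in control (95% interval of the log2 fold change -0.33 to 0.13). Hsd17b10, a mitochondrial enzyme, stood at 33.9 ± 0.49 and 35.7 ± 1.598 (-0.26 to 0.11). Hsd17b12, which mainly elongates fatty acids, stood at 18.3 ± 1.22 and 17.6 ± 0.68 (-0.16 to 0.28). Hsd17b7, an enzyme of cholesterol and estradiol synthesis, stood at 1.41 ± 0.36 and 0.98 ± 0.073 and had the widest interval (-0.10 to 0.65). The intervals of Hsd17b4, Hsd17b10 and Hsd17b12 leave room for small differences and not for 2-fold ones. For Hsd17b7 the added 1 FPKM is large beside its level, so its interval does not exclude a 2-fold difference of FPKM.

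Start sites in the RefSeq table (GRCm38.p6) were matched for 5 of the 9 genes, all of which rose. The upstream sequences of 4 are shown, because these genes rose together while no element searched lay in every window shown. Each is the 250 bases before the start, 5′ to 3′ on the strand of the gene. Capitals mark matches on either strand to the nuclear receptor half-site AGGTCA, to the box known as CCAAT, which many promoters carry, or to the GC box, whose letters are GGGCGG.
Cyp11a1 (chr9:58014702-58014951, plus strand): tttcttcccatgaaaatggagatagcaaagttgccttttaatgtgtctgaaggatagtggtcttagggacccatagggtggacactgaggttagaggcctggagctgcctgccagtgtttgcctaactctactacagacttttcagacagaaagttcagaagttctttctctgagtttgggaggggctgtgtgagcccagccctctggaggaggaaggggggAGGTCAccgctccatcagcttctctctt
Hsd11b1 (chr1:193242361-193242610, minus strand): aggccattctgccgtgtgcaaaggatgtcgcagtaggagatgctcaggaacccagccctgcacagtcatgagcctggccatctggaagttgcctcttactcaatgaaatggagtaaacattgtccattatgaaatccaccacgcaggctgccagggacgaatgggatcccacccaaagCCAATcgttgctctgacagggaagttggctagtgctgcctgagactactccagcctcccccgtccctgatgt
Akr1c18 (chr13:4150647-4150896, minus strand): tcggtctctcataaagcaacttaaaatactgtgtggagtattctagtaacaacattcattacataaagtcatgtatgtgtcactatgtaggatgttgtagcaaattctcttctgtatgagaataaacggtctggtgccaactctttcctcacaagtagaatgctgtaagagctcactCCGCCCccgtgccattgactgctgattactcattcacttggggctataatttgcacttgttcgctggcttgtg
Srd5a1 (chr13:69611464-69611713, minus strand): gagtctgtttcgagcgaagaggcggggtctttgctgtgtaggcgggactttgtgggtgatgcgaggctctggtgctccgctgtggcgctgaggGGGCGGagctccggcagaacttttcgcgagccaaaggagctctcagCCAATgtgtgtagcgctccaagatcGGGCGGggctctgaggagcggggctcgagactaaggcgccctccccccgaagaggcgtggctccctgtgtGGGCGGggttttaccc

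The Cyp11a1 window held an AGGTCA at positions -28 to -23 from the start. Hsd11b1 held a CCAAT at -72 to -68, Akr1c18 a GC box on the opposite strand at -73 to -68, and Srd5a1 a CCAAT and 3 GC boxes. Another listed start of Cyp11a1, not shown, held a CCAAT, and Hsd17b11, also not shown, held a CCAAT and a GC box. Of 32851 windows of the same length 14.0% held AGGTCA, 33.8% CCAAT and 32.7% GGGCGG. The extended half-site CAAGGTCA, which contains the shorter one and is known from steroid-making genes, was found in 1.33% of all windows and in none of these. The steroid receptor half-site TGTTCT was found in 16.1% of all windows and in none of these. The same held for the TATA box, searched as TATAAA, at 12.4% of all windows. No element was shared by all 5 genes, though all but Akr1c18 held a CCAAT when either start of Cyp11a1 is counted. A match describes letters, not a bound site.

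Electron donors and cofactor suppliers work with these enzymes. Of 7 redox partners and activators 3 rose and 0 fell (median log2 fold change 0.0027, against 0.11 over all tested genes). The 3 called are near the share over all tested genes, of which 48.5% were called, 30.9% as higher and 17.6% as lower. In this list 2 genes fell after median rescaling and under quantile normalization. Fdx1, the ferredoxin that feeds electrons to Cyp11a1, rose from 14.8 ± 0.35 to 31.2 ± 1.35 FPKM. Its reductase Fdxr stood at 8.51 ± 0.43 in control and 8.55 ± 0.99 in Ncr1Cre (95% interval -0.28 to 0.28). H6pd, which supplies the cofactor of Hsd11b1, rose from 71.2 ± 3.11 to 112 ± 1.94, and Por, the electron donor of Cyp17a1, from 32.6 ± 2.57 to 55.1 ± 3.31. Sumf1, which activates sulfatases, stood at 12.9 ± 0.092 and 11.1 ± 0.082 (adjusted p = 0.0903) and passed as lower with no filter and under both of those scalings.

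Genes of cholesterol supply bring the substrate. Of 18 genes 4 rose and 5 fell (median -0.08), 9 in all, which is near the 48.5% called over all tested genes. Without replicate 1 of the control 2 rose and 3 fell. Stard3, a cholesterol carrier of late endosomes, rose from 12.7 ± 1.51 to 27.2 ± 2.35 FPKM. Lipa, the lysosomal lipase that frees cholesterol, fell from 16.7 ± 0.27 to 7.45 ± 0.32 and Hmgcs1, an early enzyme of the route, from 23.6 ± 0.79 to 13.2 ± 0.013.

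The other genes of hormone synthesis were mostly near 0. Of 11 such genes only 2 reached the filter, Hsd17b7 (1.41 ± 0.36 and 0.98 ± 0.073) and Hsd17b12, and limma called 0 of them, with 0 at an unadjusted p under 0.05. Hsd3b1 and Hsd3b6, which make progesterone from pregnenolone, were under the filter, with Hsd3b1 at 0.19 and 0.27 FPKM in Ncr1Cre and at 0.025 and 0.026 in control, and the aromatase gene Cyp19a1 was listed at 0 in all 4 libraries. Cyp21a1, an enzyme of adrenal hormone synthesis that is named because of its values, lay at 1.21 and 1.43 FPKM in Ncr1Cre and at 0.079 and 0.066 in control. It was under the filter and not tested in the main comparison. With no filter 1 gene of this list of other synthesis genes rose.

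Of the 11 other inactivating enzymes tested, 3 rose and 4 fell (median -0.10), against 30.9% and 17.6% of all tested genes, and 2 fell without replicate 1 of Ncr1Cre or without either control replicate. Cyp1b1, which hydroxylates estradiol, fell from 5.46 ± 1.04 to 1.19 ± 0.12 FPKM. Dhrs9, a steroid and retinol dehydrogenase, rose from 1.42 ± 0.023 to 4.25 ± 0.22, and Akr1c19 from 1.53 ± 0.13 to 3 ± 0.30.

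Steroids act through nuclear receptors and their partners. Of 11 receptors and partners 1 rose and 4 fell (median -0.29), 5 in all, which is near the 48.5% called over all tested genes. In this list 7 fell after median rescaling and under quantile normalization, and 2 fell without replicate 2 of Ncr1Cre or without replicate 1 of the control. Pgr, the progesterone receptor, fell from 54.4 ± 3.74 to 31.7 ± 2.55 FPKM. The coactivator gene Ncoa1 fell from 5.999 ± 0.78 to 3.67 ± 0.68, and its call was lost without replicate 2 of Ncr1Cre (adjusted p = 0.0673) or replicate 1 of the control (0.114). Fkbp4, a cochaperone of these receptors, rose from 38.6 ± 0.96 to 80.2 ± 0.32. Esr1, an estrogen receptor, stood at 34.3 ± 0.97 in Ncr1Cre and 38.5 ± 0.91 in control and did not pass.

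Of 11 regulators of steroid-making genes 5 were tested, of which 1 rose and 2 fell (median -0.29), against 30.9% and 17.6% of all tested genes. Nr4a2, an orphan nuclear receptor, rose from 5.57 ± 0.17 to 12.0 ± 0.82 FPKM. Nr4a1 fell from 151 ± 13.8 to 118 ± 9.95 and Prlr, the prolactin receptor, from 4.50 ± 0.58 to 2.99 ± 0.17, and both calls were lost without replicate 2 of Ncr1Cre or without replicate 1 of the control. Crem stood at 3.97 ± 1.197 in control and 6.24 ± 0.22 in Ncr1Cre and passed only without replicate 2 of the control, which made 2 that rose. Nr5a1 and Nr5a2, the receptors that drive steroid-making genes in gonad and adrenal, stayed at or below 0.020 FPKM in all 4 libraries.

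Genes that respond to the hormones did not move as 1 group. Of 7 glucocorticoid response genes 1 rose and 5 fell (median -0.68), against 30.9% and 17.6% of all tested genes. Fkbp5 fell from 22.3 ± 0.17 to 11.9 ± 0.21 FPKM, Zbtb16 from 26.2 ± 2.13 to 13.7 ± 0.60 and Dusp1 from 575 ± 61.4 to 346 ± 38.9, while Sgk1, a kinase that mineralocorticoids also induce, rose from 115 ± 8.49 to 234 ± 3.32. With no filter 2 of them fell, and with the replicate block 2 rose.

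Of 8 tested progesterone targets of uterus 2 rose and 4 fell (median -0.42), against 30.9% and 17.6% of all tested genes, with 1 that rose under quantile normalization and without replicate 2 of the control, and 2 that fell without replicate 1 of the control. Cyp26a1, which breaks down retinoic acid, rose from 3.79 ± 0.14 to 22.1 ± 0.21 FPKM. Bmp2, a decidual growth factor, fell from 213 ± 19.0 to 102 ± 15.2 and Fst, an activin antagonist, from 66.0 ± 1.97 to 35.8 ± 4.95. Hand2, a stromal transcription factor, fell from 11.4 ± 0.86 to 8.06 ± 0.25, but not without replicate 1 of the control (adjusted p = 0.0694).

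Of 8 estrogen targets of uterus 6 rose and 2 fell (median 1.84), against 30.9% and 17.6% of all tested genes. Ltf, which encodes lactoferrin, rose from 134 ± 5.96 to 739 ± 40.4 FPKM, C3 from 1167 ± 76.1 to 3932 ± 158, Gjb2 from 6.39 ± 0.51 to 39.0 ± 0.055 and Muc1 from 17.9 ± 2.51 to 70.5 ± 5.93. Lif fell from 27.0 ± 0.72 to 14.6 ± 0.52 and Greb1 from 17.9 ± 2.70 to 9.35 ± 0.15. With no filter 1 gene of this list fell. Ltf, C3 and Muc1 are known as products of uterine epithelium, whose markers rose in the same libraries, and a link was not tested.

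**Figure D4:**
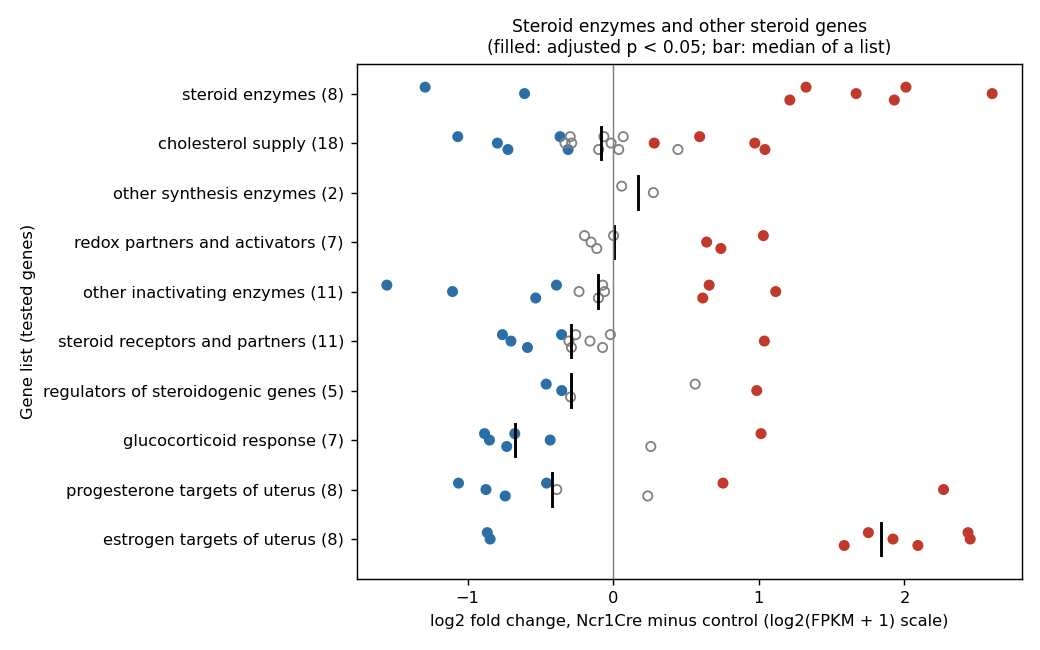
Log2 fold changes (Ncr1Cre minus control, log2(FPKM + 1) scale) of tested enzyme genes and of 9 lists of other steroid genes, with filled points for an adjusted p under 0.05, open points for the rest and a bar at the median of each list. The estrogen targets lie mostly to the right (median 1.84) and the glucocorticoid response genes mostly to the left (median -0.68).

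Markers of other cells moved with these genes, and their part in the results was not tested. Epithelial markers rose in 8 of 8 genes, and their summed level was 48266 and 51245 FPKM in Ncr1Cre and 10016 and 10132 in control, 4.94-fold. Prap1 makes up most of that sum, and Elf3 rose from 24.8 ± 0.61 to 157 ± 1.11. Trophoblast markers rose in 6 of 6 tested genes, with sums of 977 and 1096 against 316 and 356 FPKM, 3.08-fold, and Gcm1 of that list was listed at 0 throughout. Tpbpa and Prl3b1 make up most of the trophoblast sum. The fold of the tested genes of that list ran from 2.57 for Prl3b1 to 12.8 for Prl6a1.

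Summed yolk sac, erythroid and macrophage markers were higher in Ncr1Cre as well. The sums were 33.7 and 36.7 FPKM in Ncr1Cre against 3.02 and 2.67 in control for 4 yolk sac genes, 17.2 and 19.2 against 0.76 and 1.196 for 5 erythroid genes, and 78.0 and 76.3 against 18.4 and 18.5 for 5 macrophage genes. Both tested yolk sac genes and the 4 tested macrophage genes rose. The 3 tested erythroid genes, Hbb-y, Hba-x and Alas2, were under 1 FPKM in control and reached the filter only through Ncr1Cre, so their rise was fixed by the filter. Of 4 tested endothelial genes 1 rose and 1 fell (sums 22.4 and 23.0 against 13.1 and 12.5), with 0 that fell without replicate 1 or 2 of Ncr1Cre or replicate 1 of the control. Of 4 tested NK-cell genes 2 rose (26.7 and 25.8 against 17.5 and 18.1), which is near the 48.5% called over all tested genes.

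Most markers of the wall and stroma fell, as did Hsd11b2 and Star, and a link between them was not tested. Stromal and fibroblast markers fell in 10 of 11 genes and rose in 1, and with no filter 6 fell. Their sums were 11839 and 11996 FPKM in Ncr1Cre against 25077 and 25796 in control, 2.13-fold lower. Col1a1, Col1a2 and Col3a1 make up most of that sum. The falls of single genes ran from 1.42-fold for Hand2 to 3.52-fold for Postn, while Prl8a2 rose 6.2-fold. Smooth-muscle markers fell in 6 of 6 tested (sums 74.0 and 69.2 against 343 and 342), and mesothelial markers in 4 of 4 (79.2 and 75.5 against 240 and 227).

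Most markers of the classic steroid-making organs were low. Of 7 genes of ovary and corpus luteum Lhcgr and Cyp19a1 were listed at 0 in all libraries, and the sums were 16.3 and 9.06 FPKM in Ncr1Cre and 20.4 and 17.0 in control, with 0 of 2 tested genes called by limma and 1, Foxl2, at an unadjusted p under 0.05. Foxl2 made up most of these sums, at 10.8 and 5.12 FPKM in Ncr1Cre and 16.3 and 14.0 in control. Inha lay at 4.94 and 3.33 in Ncr1Cre and at 3.56 and 2.82 in control. With the replicate block, after median rescaling, under quantile normalization or without either Ncr1Cre replicate, 1 gene of this list fell. The 5 adrenal genes summed to 1.49 and 1.79 FPKM in Ncr1Cre and to 0.21 and 0.19 in control, and with no filter 1 of them rose. Cyp21a1 made up most of the sum in Ncr1Cre and less than most of it in control, and Cyp11b2 was listed at 0 throughout.

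**Figure D5:**
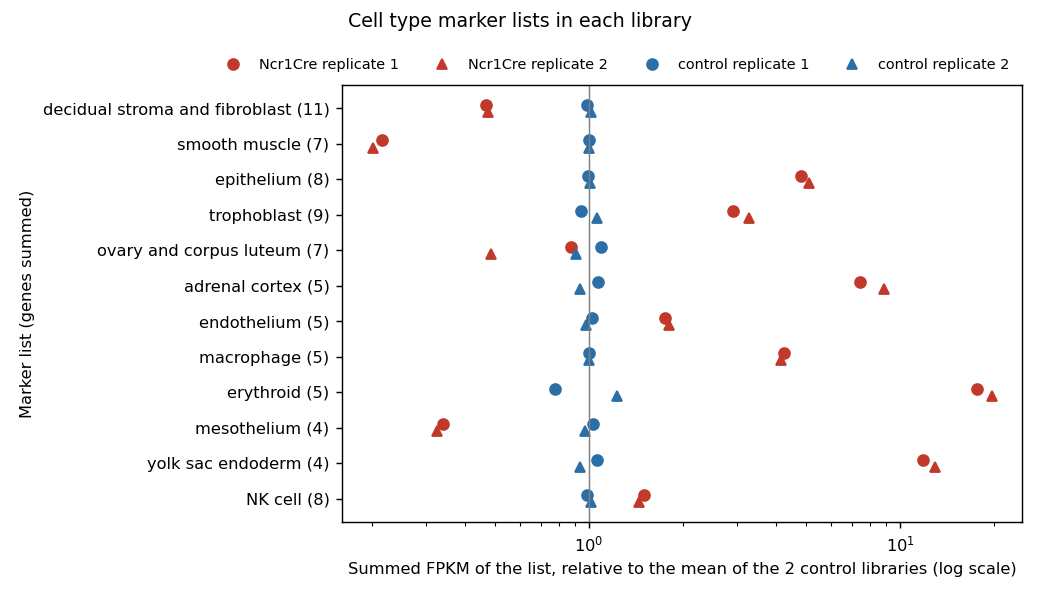
Summed FPKM of each marker list in each library relative to the mean of the control libraries (log scale), with red for Ncr1Cre, blue for control, circles for replicate 1 and triangles for replicate 2. Epithelial (4.94-fold) and trophoblast (3.08-fold) sums lie to the right in both Ncr1Cre libraries, and stromal, smooth-muscle and mesothelial sums to the left.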

How the data were processed

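The deposited tables hold 1 FPKM value per gene and library. The authors' tool was Cufflinks and the build mm9, per the submitters' processing notes. Version, aligner, annotation, strand setting and the handling of reads with several matches: not given in the sources used here. Groups and replicate numbers came from the labels. The rest of the genotype is not reported here.

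Genes were matched by symbol. Those averaging 1 FPKM or more across the 4 libraries entered a fit with limma (version 3.58.1, under R version 4.3.3, trended prior variance) of log2(FPKM + 1). The tests were two-sided, with Benjamini-Hochberg adjustment over all 11762 genes. Log2 fold changes on this scale understate the change of low genes. The exact permutation tests of ratios used scipy 1.17.1. FPKM keeps no counts, so totals were sought that made low values of genes with 1 transcript whole within 0.02 fragments. Between 35% and 42.9% came out whole, so the totals are rough and count models were not used. For replicate 2 of the control a total 2-fold higher did about as well, and the lower was taken. The fragment numbers of that library may thus be too low. Fragment numbers use the longest coding transcript of GENCODE M21. The scripts were tested on simulated data.

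All 9 genes, the lists of 9 pathway groups and 12 cell types, and the rule for named genes (up to 4 tested genes with the smallest p per pathway list and up to 2 per marker list) were chosen with earlier results of these data known. Genes named outside that rule were chosen after their values were seen. Cebpd and Hsd17b8 of the lists were not analysed here. Alternatives were a pseudocount of 0.1, no filter, a filter of 5 FPKM, median rescaling, quantile normalization, a replicate block, other thresholds and leaving out each library.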

Additional observations from a re-analysis of the deposited data

How the results depend on the processing

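Of the 8 tested enzyme genes, 7 kept their direction and call under every alternative that tested them, and Star lost its call under 2. Hsd17b2, 1 of the 7, and Star reached the filter only through the genotype in which they are high, so their calls add nothing to this count. The count of genes called, 5709, ranged from 3941 with no filter to 6759 at an adjusted p under 0.1, and from 4092 to 5034 when 1 library was left out, the lone library being assumed to vary like the others. Of the calls 63.7% were higher, 51.8% after median rescaling and 46.3% under quantile normalization. With 1 FPKM added to both values the log2 ratio differences were 0.59 for Cyp11a1 to Akr1c18, 2.19 for Cyp11a1 to Cyp17a1 and 0.45 for Hsd17b2 to Hsd17b11, since that amount is large beside the low genes.

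Hsd17b12, not called, changed sign: its log2 fold change was -0.064 after median rescaling, -0.089 under quantile normalization and from -0.0063 to 0.123 when 1 library was left out, the lowest without replicate 2 of Ncr1Cre. With no filter Ncoa1, Nr4a1, Prlr, Dusp1, Akr1c19 and Hand2 lost their calls (adjusted p of 0.138, 0.16, 0.11, 0.0739, 0.0554 and 0.0518). The labels share only a number between genotypes (correlation of replicate differences 0.16 over genes). The replicate block gave 6004 calls, 8 of them enzyme genes with Star and Hsd17b2 included. With 2 libraries in each genotype the test borrows its spread from all genes, and Cyp17a1, Star and Hsd17b2 rest on few fragments.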
